A study of Homo sapiens with 12 samples.

Results

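The Sprouty and SPRED genes were followed across Ras, MEK and ERK inhibition in 16HBE cells, an immortalised human bronchial epithelial line. Members were all probes whose single annotated symbol was SPRY1, SPRY2, SPRY4, SPRED1, SPRED2 or SPRED3. These were 6 of the 20045 genes named by a single symbol on the bead array, and they had 12 of its 47322 probes. Expression was measured on 12 arrays, 3 per group, from total RNA of separate experiments on this 1 cell line. The first group was treated for 4 days with GSK1120212 at 500 nM, an allosteric inhibitor of the kinases MEK1 and MEK2, and the second for 4 days with SCH772984 at 1 µM, an inhibitor of ERK1 and ERK2. The third stably carried DN Ras N17, a dominant-negative Ras that holds back the activation of endogenous Ras, in the retroviral vector pQCXIP. Control cells carried empty pQCXIP and were kept in DMSO, the solvent, over the same 4 days, and the drug-treated cells carried the empty vector as well. The labels give no solvent or treatment time for the DN Ras cells, which are a stable population. The level of the DN Ras protein and the activity of ERK were not measured here. Because the RNA was from bulk cultures, fewer expressing cells and less RNA per cell cannot be told apart.

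Sprouty and SPRED proteins are inhibitors of receptor tyrosine kinase signalling through Ras, RAF, MEK and ERK. Several of their genes are transcribed in response to ERK activity, so that the proteins form a negative feedback loop on the pathway that induces them. Sprouty proteins act near the receptor and at the steps of Ras and RAF activation, while SPRED proteins, which share the carboxy-terminal Sprouty domain and add an EVH1 domain, bring the Ras GTPase-activating protein neurofibromin (NF1) to Ras at the membrane. In the airway, Sprouty proteins are known for restraining fibroblast growth factor signals during branching of the lung.

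The arrays had 16825 to 18295 probes detected (detection p under 0.01 against the array's negative controls), and arrays of a group correlated with r of 0.980 to 0.993 over the 17099 probes kept for testing. A probe was kept when it was detected on all 3 arrays of at least 1 group. All 5 epithelial markers were detected on 12 arrays. Of these, KRT18 was lower than in control, with log2 differences ± SE of -0.97 ± 0.14 under the MEK inhibitor, -0.60 ± 0.14 under the ERK inhibitor and -1.02 ± 0.14 with DN Ras. KRT8 was lower under the MEK inhibitor (-0.77 ± 0.15), and CDH1 was higher under the ERK inhibitor (0.64 ± 0.13). Of 5 fibroblast markers, COL1A1 was detected on 12 arrays, COL1A2 on 1, and COL3A1, PDGFRA and DCN on 0. COL1A1 was higher than in control by 0.68 ± 0.12 under the MEK inhibitor, 0.80 ± 0.12 under the ERK inhibitor and 0.47 ± 0.12 with DN Ras (log2 ± SE). Of 3 basal airway markers, KRT5 was detected on 12 arrays, and was higher with DN Ras (0.63 ± 0.18), and NGFR on 0. KRT14 was detected on 3 ERK inhibitor arrays, 3 DN Ras arrays, 2 MEK inhibitor arrays and 0 control arrays. It was at least 4.93-fold higher under the ERK inhibitor than in control (limma adjusted p = 5.48e-07). The KRT14 probe was kept through the ERK inhibitor and DN Ras groups, so the detection filter favours a higher level there. The secretory airway markers SCGB1A1 and MUC5B were detected on 0 arrays. Among 3 ciliated markers, TEKT1 was detected on 4 arrays and FOXJ1 and DNAI1 on 0. Of 4 leukocyte markers, CD68 was detected on 12 arrays and PTPRC, CD3D and LYZ on 0. Of 5 endothelial markers, TEK was detected on 2 arrays and the others on 0. The part of these markers in the results below was not tested. DN Ras array 3 stood apart, since 128 kept probes on it were 2-fold or more higher or lower than on each of DN Ras arrays 1 and 2, and no array elsewhere had more than 46 such probes. Median scaling in place of quantile normalization shifted the median difference of all kept probes by -0.12 (MEK inhibitor), 0.13 (ERK inhibitor) and -0.10 (DN Ras) on the log2 scale against control, and against the ERK inhibitor by -0.25 (MEK inhibitor) and -0.23 (DN Ras). The signs of the Sprouty and SPRED differences named as changes below were the same under both scalings and relative to the median of all kept probes.

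The annotated promoters of the Sprouty and SPRED genes were read from RefSeq (GRCh38.p14), which held 11 starts for the 6 genes. Shown here are the 250 bases before 1 annotated start of each of SPRY1, SPRY2, SPRY4 and SPRED1, the regions from which the transcripts described below may begin. Capitals mark the only match found in them, an ETS-type run in SPRY1.
SPRY1, chr4:123398136-123398385, plus strand: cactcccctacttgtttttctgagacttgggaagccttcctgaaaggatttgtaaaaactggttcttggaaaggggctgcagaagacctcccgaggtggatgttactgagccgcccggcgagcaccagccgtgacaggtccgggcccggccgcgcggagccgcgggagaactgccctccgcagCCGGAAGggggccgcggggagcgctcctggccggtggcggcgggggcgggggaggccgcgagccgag
SPRY2, chr13:80341127-80341376, minus strand: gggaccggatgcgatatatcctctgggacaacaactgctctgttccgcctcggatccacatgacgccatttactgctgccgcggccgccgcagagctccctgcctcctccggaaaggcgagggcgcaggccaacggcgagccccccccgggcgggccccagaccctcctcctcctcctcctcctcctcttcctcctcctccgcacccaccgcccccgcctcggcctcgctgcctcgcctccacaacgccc
SPRY4, chr5:142324248-142324497, minus strand: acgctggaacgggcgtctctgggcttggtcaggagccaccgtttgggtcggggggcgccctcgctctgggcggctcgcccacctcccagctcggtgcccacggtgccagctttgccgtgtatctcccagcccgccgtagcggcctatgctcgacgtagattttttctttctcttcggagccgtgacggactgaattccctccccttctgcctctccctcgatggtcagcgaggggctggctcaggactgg
SPRED1, chr15:38252586-38252835, plus strand: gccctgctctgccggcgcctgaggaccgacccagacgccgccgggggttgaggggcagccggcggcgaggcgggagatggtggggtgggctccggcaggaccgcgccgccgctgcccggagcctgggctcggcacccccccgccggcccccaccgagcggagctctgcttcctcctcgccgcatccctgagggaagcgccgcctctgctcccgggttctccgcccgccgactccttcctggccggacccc
The windows searched ran from 250 bases before to 50 after each start, on both strands, for an ETS core (CCGGAAG), an AP-1 site (TGANTCA), a full CRE (TGACGTCA) and the SRF CArG box, motifs bound by factor families that ERK signalling acts on. The ETS run in SPRY1 lies at positions -67 to -61 from the start shown, 1 of its 2 annotated starts. The window of the other SPRY1 start held none of these motifs. An AP-1 run (TGACTCA) was found at positions -60 to -54 of 1 start of SPRED3, and 1 of the SPRED2 starts is crossed by another (TGACTCA) with a second (TGAATCA) 35 to 41 bases into the transcript. No window of SPRY2, SPRY4 or SPRED1 held any of these letter runs, and no Sprouty or SPRED window held a CRE or a CArG box. Of the 11 Sprouty and SPRED windows, 1 held the ETS core and 2 held the AP-1 site. Over all 35116 annotated promoter windows of this length, 10.3% held the ETS core, 7.71% the AP-1 site, 1.85% the CRE and 1.29% the CArG box. Which start 16HBE cells use was not measured.

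**Figure D1:**
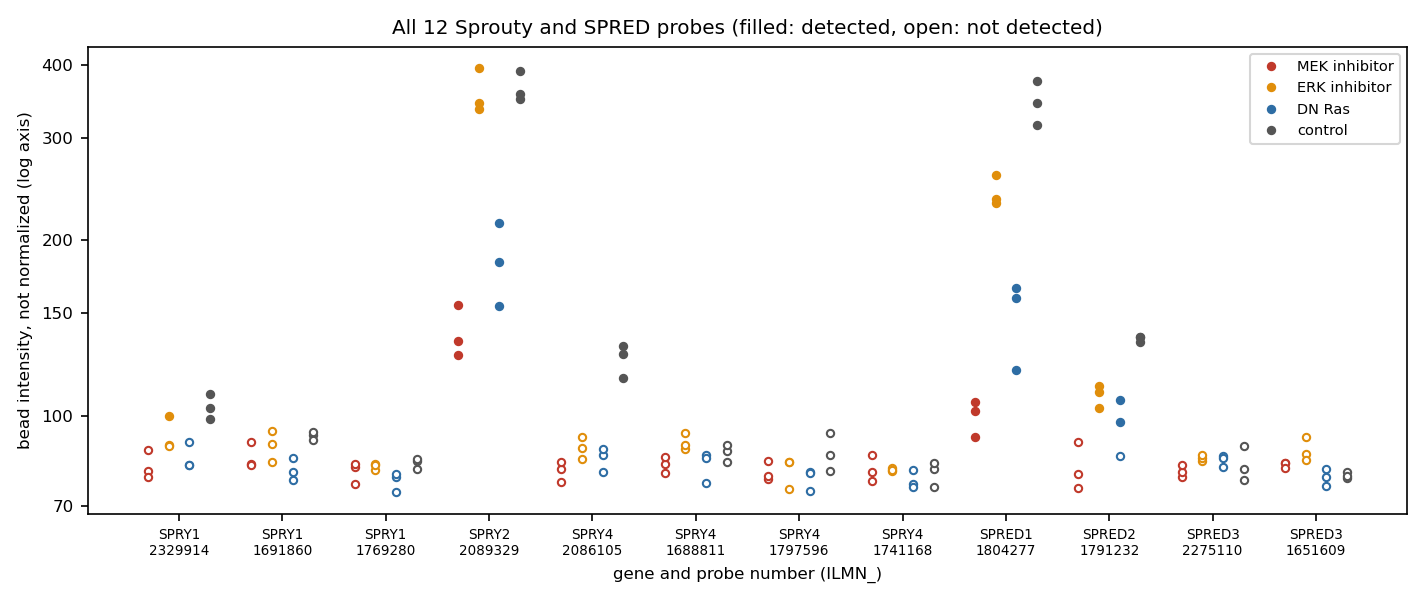
Unnormalized bead intensity (log axis) of all 12 Sprouty and SPRED probes, with a point per array for MEK inhibitor, ERK inhibitor, DN Ras and control, filled where the probe was detected. The probe of SPRY2 and that of SPRED1 were detected on all 12 arrays, and the 7 probes that were not kept lay between 73.9 and 94.0.

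Of the 12 probes, 5 were kept, 1 each for SPRY1, SPRY2, SPRY4, SPRED1 and SPRED2. Both probes of SPRED3, which encodes the least studied SPRED protein, were detected on 0 of 12 arrays, so its level could not be measured with these probes. The other probes left out were 2 of SPRY1 and 3 of SPRY4. Over the 84 array values of the 7 excluded probes the intensity was 73.9 to 94.0, and 1 of these values was detected, a SPRY1 probe on 1 control array just under the detection threshold. The probes of SPRY1 and SPRY4 were kept through the control group alone, and that of SPRED2 through the control and ERK inhibitor groups, so for these genes the selection itself favours a lower level in the other groups. In the plot of all probes, the kept probes of SPRY1, SPRY4 and SPRED2 reach down into the range of the excluded ones on inhibited arrays. Each kept value averaged 9 to 34 beads, with a bead standard error of 0.983% to 11.1% of the value.

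The Sprouty and SPRED genes that could be measured were lower under inhibition of Ras, MEK and ERK alike, with SPRY2 under the ERK inhibitor as the exception. SPRY2 and SPRED1, the genes detected on every array, were graded across the groups, while SPRY4 was undetected in all 3 inhibited groups. Values below are quantile-normalized log2 intensities with an offset of 16 added after background correction, which understates the fold change of dim probes. Differences carry standard errors and Benjamini-Hochberg adjusted p-values from limma, fitted over all 17099 kept probes, and a difference was called at an adjusted p under 0.05. The sizes and bounds hold for background-corrected values and depend on that step. With no background correction, the differences from control under MEK inhibitor, ERK inhibitor and DN Ras were -1.59, -0.62 and -1.07 for SPRED1 and -1.22, -0.18 and -0.84 for SPRY2. They were -0.63, -0.35 and -0.40 for SPRED2, -0.54, -0.47 and -0.46 for SPRY4, and -0.27, -0.18 and -0.22 for SPRY1. All kept their call but that of SPRY1 under the ERK inhibitor, and that of SPRY2 there was uncalled in both settings.

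SPRY2 encodes the Sprouty protein best known for binding GRB2 and the ubiquitin ligase CBL downstream of the epidermal growth factor receptor. Its probe read 6.51, 6.19 and 6.26 under the MEK inhibitor, 8.18, 7.89 and 7.84 under the ERK inhibitor, and 7.12, 7.07 and 6.81 with DN Ras, against 8.30, 8.12 and 8.20 in control cells. Every MEK inhibitor array was below every DN Ras array, and every DN Ras array was below all ERK inhibitor and control arrays, whereas the ERK inhibitor arrays overlapped the control arrays. Against control, SPRY2 fell by 1.88 ± 0.13 (SE) on the log2 scale under the MEK inhibitor, 3.69-fold (limma adjusted p = 1.59e-07). With DN Ras it fell by 1.20 ± 0.13 (limma adjusted p = 3.98e-05). Under the ERK inhibitor the difference was -0.23 ± 0.13, with a 95% interval of -0.52 to 0.05 (limma adjusted p = 0.298), so a fall of up to 0.52 is within its error. Among the kept probes it was number 72 in order of fitted fall under the MEK inhibitor, number 123 with DN Ras and number 3383 under the ERK inhibitor.

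SPRY4 encodes a Sprouty protein that restrains growth factor signalling to ERK. The unnormalized intensities were 76.9, 81.1 and 83.2 under the MEK inhibitor, 84.4, 91.9 and 88.2 under the ERK inhibitor, and 85.7, 87.6 and 80.2 with DN Ras, against 132, 116 and 128 in control cells. The probe was detected on all 3 control arrays and on 0 arrays of the other groups, and no inhibited array reached the lowest control array. SPRY4 was at least 2.03-fold lower under the MEK inhibitor (limma adjusted p = 1.83e-06), at least 2.11-fold lower under the ERK inhibitor (limma adjusted p = 1.06e-05) and at least 2.12-fold lower with DN Ras (limma adjusted p = 1.58e-05). Such bounds set the control mean against the lowest signal detected on the dim arrays, or the probe's own signal there where that was higher. They give no order among the 3 inhibited groups, in all of which the probe was undetected.

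SPRY1 encodes the Sprouty protein known from mice for limiting branching of the kidney's ureteric bud. Its kept probe read 80.3, 78.5 and 87.3 under the MEK inhibitor, 89.0, 88.8 and 99.9 under the ERK inhibitor, and 90.1, 82.4 and 82.2 with DN Ras, against 98.6, 109 and 103 in control cells, as unnormalized intensities. This signal was dim throughout, with 0, 1 and 0 of 3 arrays detected in the MEK inhibitor, ERK inhibitor and DN Ras groups and 3 of 3 in control. SPRY1 was at least 1.29-fold lower under the MEK inhibitor (limma adjusted p = 0.000538) and at least 1.35-fold lower with DN Ras (limma adjusted p = 0.00384). Under the ERK inhibitor the normalized values were 4.44, 4.41 and 4.92, against 5.16, 5.41 and 5.09 in control cells. These arrays did not overlap after normalization, and the difference was -0.63 ± 0.15 (limma adjusted p = 0.0125). This call was lost in 4 alternatives, with limma adjusted p of 0.0533 under median scaling, 0.0740 with no background correction, 0.0631 without ERK inhibitor array 2 and 0.0611 without control array 2.

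SPRED1 encodes the SPRED protein that binds neurofibromin and is mutated in Legius syndrome, a condition related to neurofibromatosis type 1. The normalized log2 intensities were 5.04, 5.41 and 5.10 under the MEK inhibitor, 7.41, 7.12 and 7.16 under the ERK inhibitor, and 6.54, 6.74 and 6.08 with DN Ras, against 8.24, 7.94 and 8.13 in control cells. No 2 of the 4 groups overlapped, and the order from low to high was MEK inhibitor, DN Ras, ERK inhibitor and control. SPRED1 fell by 2.92 ± 0.16 under the MEK inhibitor, 7.55-fold (limma adjusted p = 1.28e-08; -2.13 with an offset of 50), which placed it at number 17 in order of fitted fall among the 17099 kept probes. It fell by 1.65 ± 0.16 with DN Ras (limma adjusted p = 1.35e-05) and by 0.88 ± 0.16 under the ERK inhibitor (limma adjusted p = 0.00327). In this gene each neighbouring pair of groups in the order differed past the threshold.

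SPRED2 encodes a second SPRED protein with the same action on Ras and ERK. Its unnormalized intensities were 75.2, 79.3 and 90.2 under the MEK inhibitor, 103, 110 and 112 under the ERK inhibitor, and 107, 97.7 and 85.3 with DN Ras, against 137, 134 and 136 in control cells. It was detected on 0 arrays of the MEK inhibitor group, 3 of the ERK inhibitor group, 2 of the DN Ras group and 3 of the control group. All inhibited arrays were below all control arrays, and the ERK inhibitor and DN Ras arrays overlapped each other. SPRED2 was at least 2.41-fold lower under the MEK inhibitor (limma adjusted p = 2.98e-06). On the normalized log2 scale it fell by 0.93 ± 0.17 under the ERK inhibitor (limma adjusted p = 0.00281) and by 1.11 ± 0.17 with DN Ras (limma adjusted p = 0.000707).

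**Figure D2:**
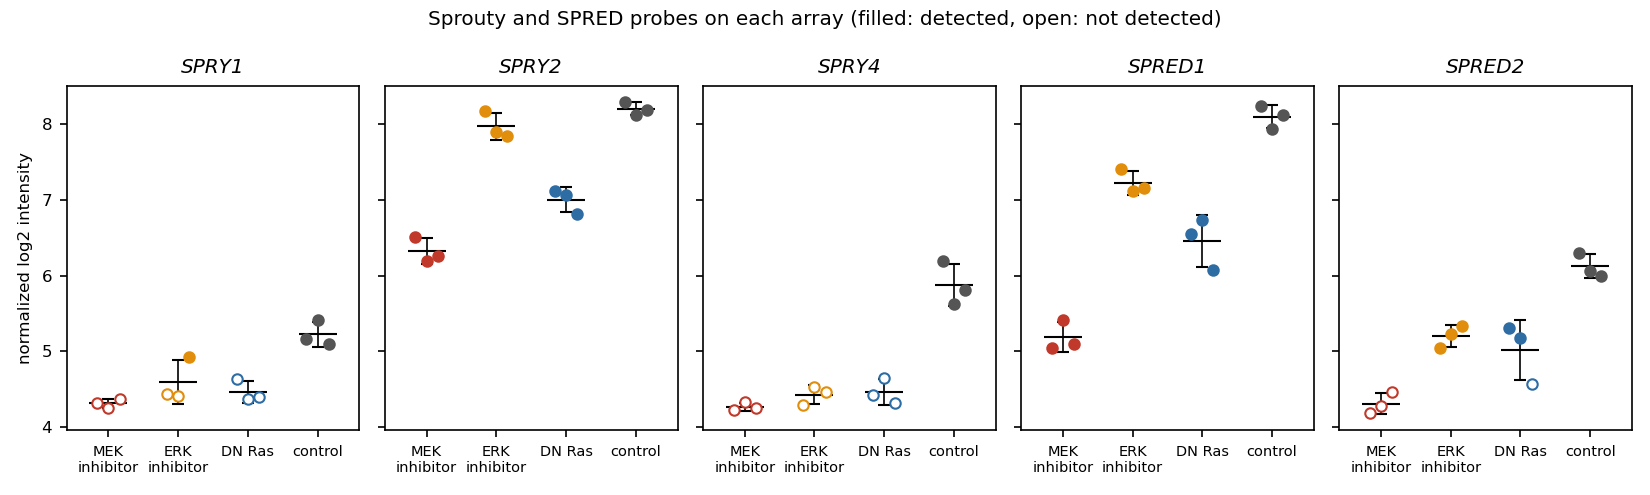
Normalized log2 intensity of the 5 kept probes on each array, in the order MEK inhibitor, ERK inhibitor, DN Ras and control, with the group mean and SD (n = 3) as a bar and open points where the probe was not detected. SPRED1 is separated into 4 levels, SPRY2 under the ERK inhibitor overlaps control at 1 of 3 arrays, and SPRY4 is undetected outside control.

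Counted together, 5 of the 5 tested genes, of 6 members, were called lower under the MEK inhibitor, where 7.44% of all kept probes were called lower and 6.49% higher. Under the ERK inhibitor 4 were called lower, beside 4.73% of kept probes lower and 5.17% higher, and with DN Ras 5 were called lower, beside 5.38% lower and 4.71% higher. None of the 5 was called higher by limma in any of these comparisons, and none had a positive difference. All 3 arrays lay below all 3 control arrays for 5, 4 and 5 genes in the MEK inhibitor, ERK inhibitor and DN Ras groups, as they did for 17.6%, 17% and 14.6% of kept probes. Limma's F-test for any difference among the 4 groups called all 5 genes and 22.2% of kept probes. The F-test's adjusted p was lowest for SPRED1 at 7.75e-08 and highest for SPRY1 at 0.00159. The detection filter fixed part of these counts, as described above. The members, and the pathway lists below, were chosen with earlier results of these data known. The shares of kept probes beside the counts are therefore a description and no independent test. The 3 comparisons share the same control arrays. With only the genes detected on all 12 arrays, SPRY2 and SPRED1, both were called lower under the MEK inhibitor and with DN Ras, and 1, SPRED1, under the ERK inhibitor.

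The inhibited groups were then set against each other, which answers whether blocking Ras, MEK or ERK left the same level of feedback inhibitor transcripts. Doses of the 2 drugs were not matched by effect, and the activity each dose left was not measured. The MEK inhibitor gave lower levels than the ERK inhibitor for 3 of the 5 genes, beside 5.25% of kept probes. SPRED1 had a log2 difference of -2.04 ± 0.16 (limma adjusted p = 1.61e-06), and SPRY2 had a difference of -1.65 ± 0.13 (limma adjusted p = 1.81e-06). SPRED2 was at least 1.27-fold lower with the MEK than with the ERK inhibitor (limma adjusted p = 0.00391). SPRY1, detected on 0 MEK inhibitor arrays and 1 ERK inhibitor array, was not called (limma adjusted p = 0.276) and its difference could not be sized. SPRY4 was undetected on both sides.

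DN Ras gave higher levels than the MEK inhibitor for 3 of the 5 genes, beside 1.81% of kept probes. The difference was 1.27 ± 0.16 for SPRED1 (limma adjusted p = 0.000636) and 0.68 ± 0.13 for SPRY2 (limma adjusted p = 0.0126), and SPRED2 was at least 1.12-fold higher with DN Ras (limma adjusted p = 0.0337). The calls of SPRY2 and SPRED2 here were lost in several alternatives. SPRED2 lost its call under median scaling (limma adjusted p = 0.0631), with no background correction (0.108), with an offset of 50 (0.106), with no detection filter (0.104) and with only the 2 groups fitted (0.110), where SPRY2 lost its call as well (0.0611). With no background correction the SPRED1 difference was 0.52 and was called. Without DN Ras array 2, without MEK inhibitor array 2 or without MEK inhibitor array 3, SPRED1 alone was called. Between DN Ras and the ERK inhibitor 2 genes were lower with DN Ras, beside 4.99% of kept probes. SPRY2 differed by -0.97 ± 0.13 (limma adjusted p = 0.000437) and SPRED1 by -0.77 ± 0.16 (limma adjusted p = 0.00960). For SPRED2 the difference between DN Ras and the ERK inhibitor was -0.18 ± 0.17, with a 95% interval of -0.54 to 0.18 (limma adjusted p = 0.559).

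DN Ras array 3, the one that stood apart, was the lowest of its group for SPRY2, SPRY4, SPRED1 and SPRED2. Without it the DN Ras differences from control were -1.46 for SPRED1, -1.11 for SPRY2, -0.89 for SPRED2, -1.35 for SPRY4 and -0.74 for SPRY1, and all 5 were called by limma. The SPRED1 difference from the ERK inhibitor was -0.59 without it (limma adjusted p = 0.0379). That of SPRED2 from the ERK inhibitor turned to 0.04, which was not called (limma adjusted p = 0.898).

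**Figure D3:**
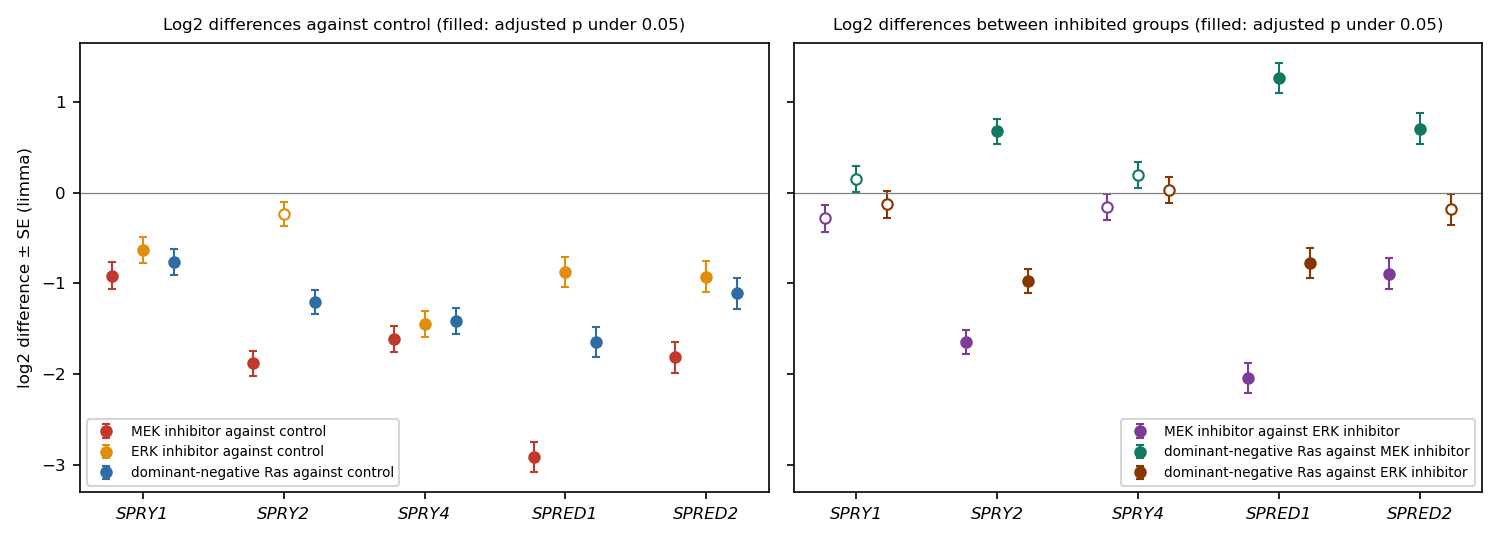
Log2 differences with standard errors (limma) of the 5 kept genes, on the left for MEK inhibitor, ERK inhibitor and DN Ras against control, and on the right between the inhibited groups, with filled points at adjusted p under 0.05. The SPRED1 differences from control span -2.92 to -0.88. Where a probe was undetected in a group, as for SPRY4 in all 3, the plotted value is the fit, not a bound, and gives no order.

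Next, the proteins that Sprouty and SPRED proteins bind or are regulated by were examined, as 14 genes of which 12 were on the array and 11 were tested. Of these, 0 were lower by limma in any comparison with control. At an unadjusted p under 0.05, 0 were lower under the MEK inhibitor, 2 under the ERK inhibitor and 0 with DN Ras, where 13.9%, 13.3% and 13.2% of kept probes were. DYRK1A, a kinase that phosphorylates Sprouty proteins, rose by 0.52 ± 0.15 under the MEK inhibitor (limma adjusted p = 0.0264). MKNK1, an ERK-activated kinase that phosphorylates SPRY2, rose by 0.47 ± 0.14 under the MEK inhibitor (limma adjusted p = 0.0402) and by 0.60 ± 0.14 under the ERK inhibitor (limma adjusted p = 0.0153). With DN Ras 0 were called higher by limma, and 1 was higher at an unadjusted p under 0.05, as were 12.9% of kept probes. For calls of higher level at an adjusted p, 2 of 11 under the MEK inhibitor stand beside 6.49% of kept probes, and 1 of 11 under the ERK inhibitor beside 5.17%. The median differences of the list were 0.06, 0.09 and 0.12 for MEK inhibitor, ERK inhibitor and DN Ras against control, where all kept probes had medians of 0.01, -0.01 and 0.01. NF1, the partner of the SPRED proteins, had 1 probe that was not kept, at intensities of 80.6 to 98.3, and its level could not be compared.

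Other negative feedback regulators of the cascade comprised 17 genes, with 16 on the array and 12 tested. The same 4 of 12 were lower in each of the 3 comparisons with control, beside 7.44% of kept probes under the MEK inhibitor, 4.73% under the ERK inhibitor and 5.38% with DN Ras, namely DUSP5 and DUSP6, which encode ERK phosphatases, ERRFI1, an inhibitor of the EGF receptor, and PHLDA1, whose protein can inhibit receptor tyrosine kinase signalling. PHLDA1 fell by 2.95 ± 0.14 under the MEK inhibitor (limma adjusted p = 4.03e-09), with differences of -1.48 ± 0.14 under the ERK inhibitor (limma adjusted p = 8.66e-06) and -1.67 ± 0.14 with DN Ras (limma adjusted p = 3.36e-06). DUSP5 was lower as well, with differences of -2.31 ± 0.14 under the MEK inhibitor, -1.51 ± 0.14 under the ERK inhibitor and -1.65 ± 0.14 with DN Ras, with limma adjusted p of 3.44e-08, 6.52e-06 and 3.49e-06. DUSP6 was at least 2.38-fold lower under the MEK inhibitor, where it was not detected (limma adjusted p = 1.24e-06). Its probe was kept through the control group alone, so for DUSP6 the detection filter favours a lower level in the other groups. The ERRFI1 differences were -1.59 ± 0.16 under the MEK inhibitor, -0.79 ± 0.16 under the ERK inhibitor and -1.02 ± 0.16 with DN Ras, with limma adjusted p of 4.26e-06, 0.00446 and 0.000660.

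Not all genes of that list moved down. DUSP1, a phosphatase acting mainly on JNK and p38, rose by 0.99 ± 0.29 under the MEK inhibitor (limma adjusted p = 0.0332) and by 1.37 ± 0.29 under the ERK inhibitor (limma adjusted p = 0.00754). LRIG1, which promotes degradation of EGF receptors, was detected in the ERK inhibitor group and in no control array, at least 1.53-fold higher (limma adjusted p = 0.00116). Its probe was kept through the ERK inhibitor group alone, so for LRIG1 the detection filter favours a higher level in that group. The median differences of the 12 tested genes were -0.10, -0.01 and -0.01 for MEK inhibitor, ERK inhibitor and DN Ras against control. With undetected genes set at their bound the medians were -0.11, -0.01 and 0. LRIG1, undetected in the MEK inhibitor, DN Ras and control groups, was left out of the bounded medians for the MEK inhibitor and DN Ras. Between the 2 drugs, 5 of the 12 genes were lower with the MEK inhibitor than with the ERK inhibitor, beside 5.25% of kept probes. Among them were PHLDA1 at -1.47 ± 0.14 (limma adjusted p = 8.87e-06), DUSP5 at -0.80 ± 0.14 (limma adjusted p = 0.00241) and ERRFI1 at -0.80 ± 0.16 (limma adjusted p = 0.00422). The others were IER3 and LRIG1, and for LRIG1 the detection filter favours this direction.

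At both ends of the pathway the lists differed in count. Of 11 receptor tyrosine kinase genes, 10 were on the array and 6 were tested, and 1 was called against control, ERBB3, which fell by 0.52 ± 0.13 with DN Ras (limma adjusted p = 0.0216), where 5.38% of kept probes were lower. For the drugs, limma called 0 of the receptor genes. At an unadjusted p under 0.05, limma had 0 receptor genes lower and 0 higher under the MEK inhibitor, beside 13.9% and 14.2% of kept probes. Under the ERK inhibitor 1 was lower and 0 were higher at that threshold, beside 13.3% and 12%. The receptor medians were 0.06, -0.02 and -0.05 for MEK inhibitor, ERK inhibitor and DN Ras against control. Of 11 transcription factor genes at the output of ERK, all 11 were on the array and 10 were tested. The same 5 of 10 were lower in each comparison with control, beside the 7.44%, 4.73% and 5.38% of kept probes given above, namely EGR1, FOSL1, ETV4, ETV5 and MYC. The probe of ETV4 was kept through the control group alone, and that of ETV5 through the control and ERK inhibitor groups. For these genes the detection filter favours a lower level in the other groups. EGR1, an immediate early factor, was lower, with differences of -3.20 ± 0.16 under the MEK inhibitor, -3.24 ± 0.16 under the ERK inhibitor and -2.70 ± 0.16 with DN Ras, with limma adjusted p of 4.03e-09, 8.69e-09 and 6.56e-08. ETV5, a PEA3-family ETS factor, was at least 4.62-fold lower under the MEK inhibitor (limma adjusted p = 3.44e-08), and its differences were -1.64 ± 0.18 under the ERK inhibitor (limma adjusted p = 2.31e-05) and -2.25 ± 0.18 with DN Ras (limma adjusted p = 1.53e-06). ETV5 was detected on 1 of 3 DN Ras arrays, so the size of its DN Ras difference includes values below detection. ETS2 rose by 0.53 ± 0.12 under the ERK inhibitor (limma adjusted p = 0.0103) and by 0.64 ± 0.12 with DN Ras (limma adjusted p = 0.00321). The output medians were -0.57, -0.58 and -0.64 for MEK inhibitor, ERK inhibitor and DN Ras against control.

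**Figure D4:**
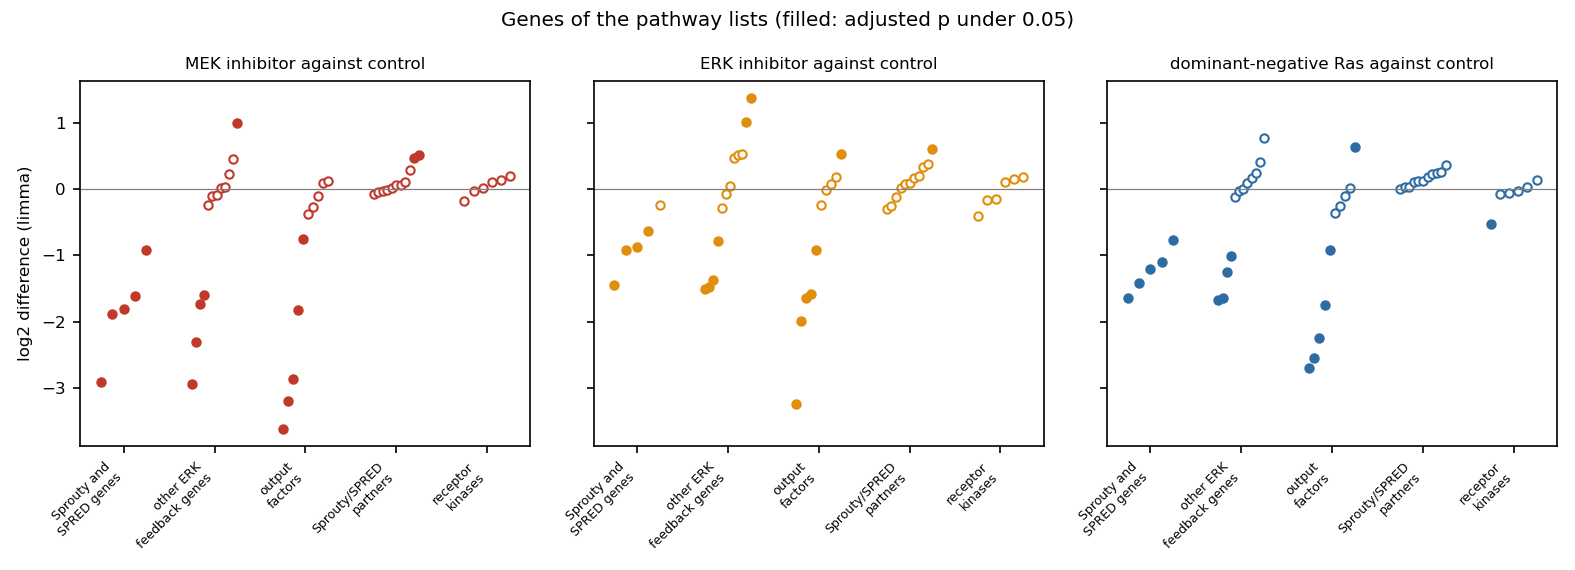
Log2 differences (limma) of each tested gene of the Sprouty and SPRED family and of the 4 pathway lists, for MEK inhibitor, ERK inhibitor and DN Ras against control, with filled points at adjusted p under 0.05. The feedback and output lists hold 4 and 5 genes called lower in each panel, and the partner list holds none.

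Finally, the genes whose levels ran most like each member were ranked by Pearson r over the 12 arrays among 10502 genes. These values describe the arrays, which share the same group differences, and carry no test. For SPRED1 the closest were MYEOV (r = 0.994), IL4R (0.979) and MAOA (0.976), and MYEOV had differences from control of -4.60 under the MEK inhibitor, -1.13 under the ERK inhibitor and -2.48 with DN Ras. For SPRY2 they were TMEM125 (0.982), MGARP (0.978) and TNC (0.977). TNC, which encodes the matrix protein tenascin C, resembled SPRY2 in having a difference of -2.39 under the MEK inhibitor and -0.27 under the ERK inhibitor. For SPRED2 they were ADORA2B (0.980), IL1R1 (0.978) and FOSL1 (0.976), the last being the AP-1 subunit of the output list. For SPRY4 they were SH2D5 (0.975), MME (0.966) and MIA (0.965), and for SPRY1 DIAPH2 (0.965), MAFF (0.945) and PFKL (0.942). Among the members themselves r was highest between SPRY2 and SPRED1 (0.961) and lowest between SPRY2 and SPRY4 (0.669).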

How the data were processed

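The deposited table holds, per the file headers, a mean bead intensity for each probe and array, not normalized, its standard error over beads, the count of beads behind it and a detection p-value against the negative controls, as the authors exported them. The export used GenomeStudio, per the submitters' processing notes. Its version, scanner settings and annotation build are not stated in the labels or headers. The authors' processed values are a second deposited intensity table, background-subtracted and on shared quantiles judging by the values, used as an alternative. Depth does not apply to arrays, and their number limits the precision.

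In limma 3.58.1 (R 4.3.3), neqc corrected the background from the detection p-values, added an offset of 16, quantile-normalized and took log2. A probe was kept where at least 1 group had it detected (p under 0.01) on its 3 arrays. One linear model with 4 group means was fitted with lmFit and eBayes to all kept probes, with Benjamini-Hochberg adjustment over all of them. A gene was represented by its kept probe with the highest mean; each Sprouty or SPRED gene had 1 at most. The procedure was tested on simulated data.

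Names in the text are all members, the 3 genes most like each by Pearson r, and up to 4 genes with the smallest adjusted p of each pathway list and comparison; NF1 was named with the SPREDs. The members and lists were chosen with earlier results of these data known. MYC, ETS2, DUSP1, LRIG1, ERRFI1 and the marker genes given with values, where they fall outside that limit, were named after their values were seen, to account for all calls of their list. Alternatives varied scaling, background, offset, filter, probe choice, samples and replicate block, and left out each array. Names and promoters came from the platform annotation and RefSeq.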

Additional observations from a re-analysis of the deposited data

How the results depend on the processing

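Requiring detection on all 12 arrays left only SPRY2 and SPRED1 among the tested genes, so the number of Sprouty and SPRED genes called was 2 under the MEK inhibitor, 1 under the ERK inhibitor and 2 with DN Ras against control, and 2 by the F-test, because fewer genes were tested. Fitting only the 2 groups compared left 1 gene called between DN Ras and the MEK inhibitor, and leaving out 1 array at a time gave 1 to 3 there; the cause was not tested. Leaving out 1 array gave 3 to 4 genes called under the ERK inhibitor against control, and left the counts of the other comparisons at their values. SPRED2 between DN Ras and the MEK inhibitor lost its call in 11 of 22 alternatives, with limma adjusted p up to 0.138, and SPRY2 in 4 of 23, up to 0.0778. Differences between DN Ras and the ERK inhibitor that turned sign were SPRY4 at -0.03 without ERK inhibitor array 1 and -0.059 without DN Ras array 2, SPRY1 at 0.037 without ERK inhibitor array 3 and SPRED2 at 0.044 without DN Ras array 3. Over all arrays left out 1 at a time, these differences ranged over -0.059 to 0.11 for SPRY4, -0.21 to 0.037 for SPRY1 and -0.32 to 0.044 for SPRED2; none was called under any of these settings. Median scaling moved the share of calls that were higher, over all kept probes, to 24.0% from 46.6% (MEK inhibitor against control), 84.3% from 52.2% (ERK inhibitor against control), 22.7% from 46.7% (DN Ras against control), 4.28% from 34.9% (MEK against ERK inhibitor), 66.9% from 56.3% (DN Ras against MEK inhibitor) and 4.16% from 42.9% (DN Ras against ERK inhibitor). With the replicate block, the counts of members called were 5, 4 and 5 for MEK inhibitor, ERK inhibitor and DN Ras against control, 3 for MEK against ERK inhibitor, 3 for DN Ras against MEK inhibitor, 2 for DN Ras against ERK inhibitor and 5 by the F-test, as without it. Same-numbered arrays of different groups had deviations correlated at -0.18 to 0.32 over 18 pairs (median 0.096), 8 of them above 0.1. Pairs with different numbers were correlated at -0.25 to 0.21 over 36 pairs (median -0.055), 7 of them above 0.1. Of 12 arrays, 7 correlated best with their own number. The labels do not say whether the numbers mark shared experiments, and the main fit did not pair the arrays. Over all kept probes the block gave 2600 calls against 2381 without it for the MEK inhibitor, 1866 against 1692 for the ERK inhibitor and 1955 against 1725 for DN Ras. Signal over background limits SPRY1, SPRY4, SPRED2 and SPRED3. A slide effect was not run, since the files name no slides.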
